A study of Homo sapiens with 4 samples.

Results

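The mitochondrial fusion and fission genes examined here were MFN1, MFN2, OPA1, DNM1L, FIS1, MFF, MIEF1, MIEF2, OMA1 and YME1L1. They were chosen by name, as the genes of the core machinery, and all 10 were found once each among the 22637 genes of the count table. RNA-seq was carried out on 4 human prostate cancer cell lines, each described as prostatic adenocarcinoma and left untreated, with 1 library per line. LNCaP is a castration-sensitive line and C4-2B a castration-resistant line derived from it. LN-OlapR and 2B-OlapR were obtained from LNCaP and C4-2B by long exposure to rising doses of olaparib, an inhibitor of the PARP enzymes of DNA repair, and each is a single derived line. Cells of all 4 lines were plated for 48 hours without olaparib before RNA was isolated, although the study's methods give a longer time. Those methods do not say whether olaparib was left out at plating, and they state that the resistant lines were maintained in medium with it. In each pair, resistance and this culture with the drug cannot be told apart. LN-OlapR against LNCaP is called the LN pair below, and 2B-OlapR against C4-2B the 2B pair.

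Mitochondria form a network that is joined by fusion and divided by fission. The mitofusins MFN1 and MFN2 fuse the outer membrane and OPA1 fuses the inner membrane. The dynamin DNM1L, also known as DRP1, constricts the organelle after it is recruited from the cytosol by the outer membrane receptors MFF, MIEF1 and MIEF2, and FIS1 is a further outer membrane protein of fission. The inner membrane proteases YME1L1 and OMA1 cut OPA1 into short forms, OMA1 mainly under stress. In cancer cells the balance of both processes is known to bear on respiration, mitophagy and cell death.

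Levels are given as normalized CPM, which are estimated counts per 1000000 reads after TMM scaling between libraries. Total counts ranged from 19950537 to 26394267 per library. With 1 library per line there is no replicate error and no p-value. Intervals at the 95% level cover counting error alone, and a difference larger than its interval is a difference between 2 libraries, not shown to recur between cultures. All 9 luminal prostate markers examined, FOXA1 and HOXB13 among them, were detected in every library, with a summed level of 3177 to 6715 normalized CPM. LNCaP stood apart for the kallikrein KLK3, at 53.1 normalized CPM against 1870 to 2685 in the other lines, and was the lowest line for KLK2, at 126.4 against 233.0 to 747.6. The part of this in the ratios of the LN pair was not tested. Of 13 markers of basal, mesenchymal, neuroendocrine, leukocyte and endothelial cells, 5 had values, and they summed to 12.4 to 23.4 normalized CPM.

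The 10 genes differed little between resistant and parental cells, and those that differed most were not the same in the 2 pairs. In the 2B pair, DNM1L and OMA1 were lower in 2B-OlapR. In the LN pair, FIS1 was higher in LN-OlapR. Counting genes at least 1.5-fold apart in either direction, 1 of 10 differed in the LN pair, against 21.4% of all 15373 analyzed genes, and 2 of 10 in the 2B pair, against 24.2% of 15527. Neither share was above that of all genes. No member was 2-fold apart in either pair.

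The 3 genes past 1.5-fold are shown first with the 250 bases before their RefSeq start site on GRCh38.p14, read 5′ to 3′ on the strand of the gene, together with OPA1 and MFN2, whose log2 ratios had opposite signs in the pairs. The window of MFN2 is shown as one without the motif. Capitals mark TGCGCA, the half-site of NRF1, a factor known to drive nuclear genes for mitochondrial proteins. The windows lie at chr12:32679051-32679300 on the plus strand for DNM1L, at chr1:58546727-58546976 on the minus strand for OMA1, at chr7:101245082-101245331 on the minus strand for FIS1, at chr3:193592958-193593207 on the plus strand for OPA1 and at chr1:11980194-11980443 on the plus strand for MFN2.
DNM1L: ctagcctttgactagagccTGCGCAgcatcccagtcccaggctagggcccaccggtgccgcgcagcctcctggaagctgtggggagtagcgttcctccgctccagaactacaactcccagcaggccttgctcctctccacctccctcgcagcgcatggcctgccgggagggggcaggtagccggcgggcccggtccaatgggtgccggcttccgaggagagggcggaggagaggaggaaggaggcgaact
OMA1: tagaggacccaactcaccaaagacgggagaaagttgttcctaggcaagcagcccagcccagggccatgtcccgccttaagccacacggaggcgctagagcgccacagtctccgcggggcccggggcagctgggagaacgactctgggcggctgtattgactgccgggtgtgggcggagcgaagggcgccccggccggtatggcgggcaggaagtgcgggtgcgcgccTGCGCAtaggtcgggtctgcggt
FIS1: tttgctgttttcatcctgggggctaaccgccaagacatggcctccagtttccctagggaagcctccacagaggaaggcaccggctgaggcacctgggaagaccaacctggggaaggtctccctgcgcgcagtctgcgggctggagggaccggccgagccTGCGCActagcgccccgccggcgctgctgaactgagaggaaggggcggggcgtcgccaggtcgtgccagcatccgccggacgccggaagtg
OPA1: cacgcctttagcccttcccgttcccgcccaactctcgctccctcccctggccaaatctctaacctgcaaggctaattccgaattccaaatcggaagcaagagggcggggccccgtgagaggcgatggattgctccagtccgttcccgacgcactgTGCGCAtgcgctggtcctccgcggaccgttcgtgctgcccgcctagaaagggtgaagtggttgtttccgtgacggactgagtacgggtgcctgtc
MFN2: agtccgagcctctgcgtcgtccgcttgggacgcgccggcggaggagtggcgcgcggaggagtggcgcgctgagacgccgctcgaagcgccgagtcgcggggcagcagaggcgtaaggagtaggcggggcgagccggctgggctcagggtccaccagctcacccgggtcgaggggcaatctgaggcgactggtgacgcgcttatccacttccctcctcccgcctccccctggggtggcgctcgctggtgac

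TGCGCA reads the same on both strands. Counted back from the start site, it lies at -231 to -226 in DNM1L, at -23 to -18 in OMA1, at -91 to -86 in FIS1 and at -95 to -90 in OPA1. RefSeq windows were found for 9 of the 10 genes, 12 windows in all, and YME1L1 is named only. Of the 9 genes, 7 held the half-site, namely OPA1, DNM1L, FIS1, MFF, MIEF1, MIEF2 and OMA1. The mitofusins did not. It was found in 7 of the 12 windows, against 6.89% of all 35116 windows and 10.5% of the 15425 windows of expressed genes, those that averaged 1 normalized CPM or more. Counted by gene, 14.1% of 10681 expressed genes held it in at least 1 window. Among all windows within the GC range of the members, 33.6% to 72.4%, the share was 6.84%. This wide range held 28584 of the 35116 windows, so that share is not matched for GC.

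Other motifs were searched in the same windows on both strands. The ETS core CCGGAAG was held by MFN1, FIS1 and MIEF1, that is by 3 of 9 genes against 19.3% of expressed genes. The Sp1 box GGGCGG was held by 8 of 9 genes, MFN2 being the exception, against 74.3%. For the CCAAT box the numbers were 5 of 9 and 41.8%. The YY1 core ATGGCGGC, the CREB site TGACGTCA, the E-box CACGTG and the ERR half-site AAGGTCA were in none of these windows, and 2.68%, 3.46%, 11.4% and 3.36% of expressed genes held them. These are matches of letters in a short window and say nothing of binding. The motifs were kept after a wider set of patterns had been searched.

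DNM1L carries out the constriction itself. It lies on chromosome 12 from 32679200 to 32745650 on the plus strand in GENCODE release 29 (GRCh38), and is listed as ENSG00000087470.21. Counts were 2526 for LNCaP and 2290 for LN-OlapR, and 2132 for C4-2B and 1324 for 2B-OlapR, and the levels were 94.0 normalized CPM (95% Wilson interval 90.4 to 97.7), 98.2 (94.2 to 102.3), 104.2 (99.9 to 108.7) and 63.9 (60.6 to 67.4). The first 3 lines were within a narrow band and 2B-OlapR stood below it. The log2 ratio of the 2B pair was -0.71 (-0.80 to -0.61), and 18.3% of all genes had a larger absolute ratio. In the LN pair it was 0.06 (-0.02 to 0.14), which includes 0. The ratio of the 2B pair was lower than that of the LN pair by a difference of -0.77 (-0.90 to -0.64).

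OMA1, the stress-activated protease, showed the widest range of the 10 genes. It lies on the minus strand of chromosome 1 from 58415384 to 58546802 (ENSG00000162600.12). Its levels were 25.5 normalized CPM (23.6 to 27.5) for LNCaP and 24.7 (22.7 to 26.8) for LN-OlapR, and 19.3 (17.5 to 21.3) for C4-2B and 11.4 (10.03 to 12.9) for 2B-OlapR, from 685, 575, 395 and 236 counts. The LN lines overlapped, C4-2B was below both, and 2B-OlapR was the lowest. The highest and the lowest library differed 2.23-fold, a wider range than that of 72.8% of all genes. In the 2B pair the log2 ratio was -0.76 (-0.99 to -0.53), and 16.03% of genes had a larger absolute ratio. In the LN pair it was -0.05 (-0.21 to 0.11). An exon of OMA1 shares 257 bases with an exon of DAB1 on the same strand in GENCODE, and DAB1 was not analyzed here.

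YME1L1, the protease that cuts OPA1 constitutively, was steady. Chromosome 10 holds it on the minus strand from 27110112 to 27155266 (ENSG00000136758.20). Its level was 85.1 normalized CPM for LNCaP and 91.2 for LN-OlapR, and 78.1 for C4-2B and 78.4 for 2B-OlapR. The log2 ratio of the 2B pair was 0.01 (-0.09 to 0.10) and that of the LN pair 0.10 (0.01 to 0.18), and 99.1% and 79.4% of genes had a larger absolute ratio. Its exons overlap those of MASTL on the opposite strand by 443 bases. MASTL had 494 to 673 counts. A pseudogene, YME1L1P1, was not analyzed here, and whether strand was used in counting is not given in the sources used here.

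FIS1 was the member that differed most in the LN pair. GENCODE also holds transcripts that begin upstream of the RefSeq start site shown, and the gene lies on the minus strand of chromosome 7 from 101239458 to 101252316 (ENSG00000214253.9). Its counts were 1972 for LNCaP and 3113 for LN-OlapR, and 1967 for C4-2B and 2038 for 2B-OlapR, or 73.4 normalized CPM (70.2 to 76.7), 133.5 (128.9 to 138.2), 96.1 (92.0 to 100.5) and 98.4 (94.2 to 102.7). LNCaP was the lowest line, LN-OlapR the highest, and the 2B lines lay between them and overlapped. The log2 ratio of the LN pair was 0.86 (0.78 to 0.94), or 1.82-fold, and 12.1% of genes had a larger absolute ratio. For the 2B pair it was 0.03 (-0.06 to 0.12), and the difference between the pairs, 2B minus LN, was -0.83 (-0.95 to -0.71).

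The receptors of DNM1L followed other patterns. The level of MIEF1 (chromosome 22, plus strand, 39499432 to 39518132, ENSG00000100335.15) was 110.9 normalized CPM (106.9 to 114.9) for LNCaP and 108.7 (104.5 to 113.0) for LN-OlapR, and 161.2 (155.8 to 166.8) for C4-2B and 188.4 (182.6 to 194.4) for 2B-OlapR. Both 2B lines were above both LN lines. The log2 ratio of the 2B pair was 0.23 (0.16 to 0.29) and that of the LN pair -0.03 (-0.10 to 0.05). Its 213 bases shared with AL022312.1, a gene on the same strand that codes for a small protein, make its value uncertain.

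MIEF2, the paralog of MIEF1, was the receptor with the lowest level per length (chromosome 17, plus strand, 18260534 to 18266552, ENSG00000177427.13). Its levels were 13.9 normalized CPM (12.6 to 15.4) for LNCaP and 18.4 (16.7 to 20.2) for LN-OlapR, and 17.7 (15.96 to 19.6) for C4-2B and 20.6 (18.7 to 22.7) for 2B-OlapR. Both resistant libraries were above their parents, with a log2 ratio of 0.40 (0.20 to 0.60) in the LN pair and 0.22 (0.02 to 0.42) in the 2B pair. The lower end of the latter interval is near 0, and with scaling by total counts this ratio was 0.18. MFF (chromosome 2, plus strand, 227325151 to 227357836, ENSG00000168958.21) varied least of all members. It had 32.0, 36.7, 33.7 and 35.5 normalized CPM in LNCaP, LN-OlapR, C4-2B and 2B-OlapR, a 1.148-fold range, narrower than that of all but 3.52% of genes. Its log2 ratio was 0.20 (0.06 to 0.34) in the LN pair and 0.07 (-0.07 to 0.22) in the 2B pair.

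**Figure D1:**
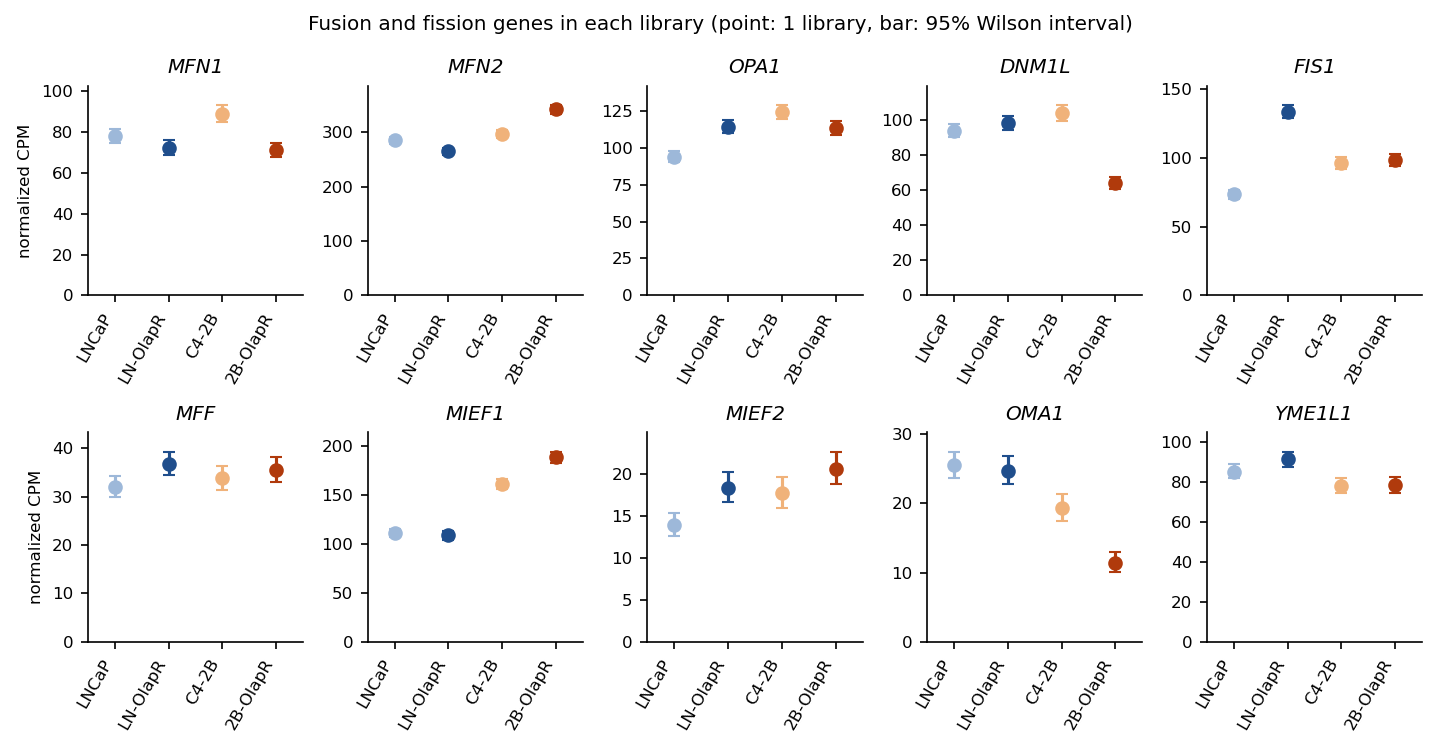
Normalized CPM of the 10 fusion and fission genes (vertical axis of each panel, from 0) in the libraries of the 4 cell lines (horizontal axis). Points are single libraries and bars are 95% Wilson intervals of the counts. DNM1L is lowest in 2B-OlapR at 63.9, FIS1 highest in LN-OlapR at 133.5, and OMA1 lowest in 2B-OlapR at 11.4.

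The fusion GTPases differed by less than 1.5-fold in both pairs, a count of 0 of 3 where 21.4% and 24.2% of all genes passed. The level of MFN2 (chromosome 1, plus strand, 11980181 to 12013514, ENSG00000116688.18) was 285.5 normalized CPM (279.1 to 291.9) for LNCaP and 265.5 (258.9 to 272.2) for LN-OlapR, and 296.3 (288.9 to 303.8) for C4-2B and 342.3 (334.4 to 350.4) for 2B-OlapR. The log2 ratio was -0.10 (-0.15 to -0.06) in the LN pair and 0.21 (0.16 to 0.26) in the 2B pair, so the pairs went in opposite directions beyond counting error.

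The level of MFN1 (chromosome 3, plus strand, 179347692 to 179394931, ENSG00000171109.19) was 77.9 normalized CPM (74.7 to 81.3) for LNCaP and 72.4 (69.0 to 76.0) for LN-OlapR, and 89.1 (85.1 to 93.3) for C4-2B and 71.2 (67.6 to 74.9) for 2B-OlapR. It was lower in the resistant line of both pairs, with log2 ratios of -0.11 (-0.20 to -0.01) and -0.32 (-0.42 to -0.23) in the LN and the 2B pair. The level of OPA1 (chromosome 3, plus strand, 193593144 to 193697823, ENSG00000198836.11) was 94.0 normalized CPM (90.4 to 97.8), 114.1 (109.9 to 118.5), 124.0 (119.3 to 128.9) and 113.3 (108.8 to 118.0) in LNCaP, LN-OlapR, C4-2B and 2B-OlapR. LNCaP stood below the other lines, and the resistant lines overlapped. Its log2 ratio was 0.28 (0.20 to 0.36) in the LN pair and -0.13 (-0.21 to -0.05) in the 2B pair, again in opposite directions. The antisense gene OPA1-AS1 shares 208 bases with OPA1 exons and was not analyzed here.

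Over all 10 genes, 6 had a log2 ratio above 0 in the LN pair, against 49.6% of all genes, and 6 in the 2B pair, against 50.0%. The median log2 ratio was 0.08 in the LN pair and 0.02 in the 2B pair, where the median of all genes was 0.00 in each. Scaling by total counts put the median of the members at 0.00 in the LN pair and -0.02 in the 2B pair. The medians of all genes were then -0.09 and -0.04. With this scaling 5 members were above 0 in the LN pair and 4 in the 2B pair. With TMM, intervals left out 0 for 7 members in each pair, against 63.0% of all genes in the LN pair and 62.3% in the 2B pair. With total counts they did so for 6 members in each pair. The median absolute log2 ratio of the members was 0.11 against 0.27 for all genes in the LN pair, and 0.21 against 0.30 in the 2B pair. Over the 4 libraries, the highest level was 1.40 times the lowest for the median member and 1.67 times for the median of 15645 genes. The genes compared were not matched to the members by level, and counting error is wider for genes with few counts.

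**Figure D2:**
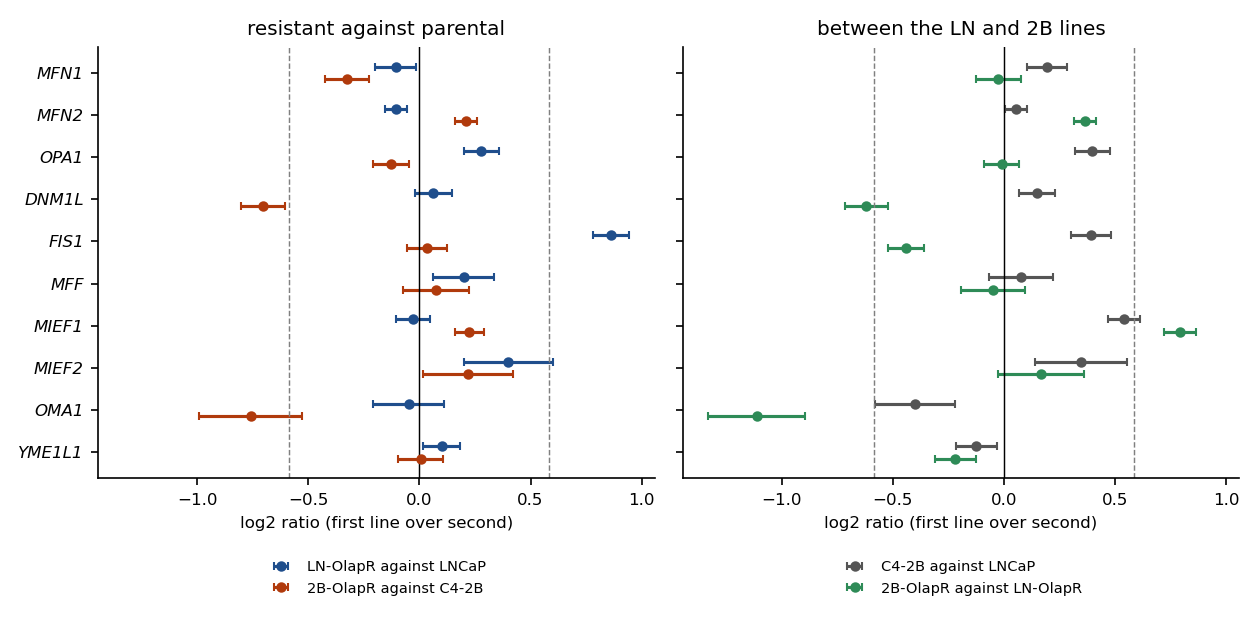
Log2 ratios of the 10 genes (horizontal axis) for the LN pair and the 2B pair on the left, and for C4-2B against LNCaP and 2B-OlapR against LN-OlapR on the right. Points are ratios of 2 libraries, bars are 95% counting intervals and dashed lines mark 1.5-fold. On the left, FIS1 at 0.86 and DNM1L and OMA1 at -0.71 and -0.76 lie beyond the dashed lines.

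**Figure D3:**
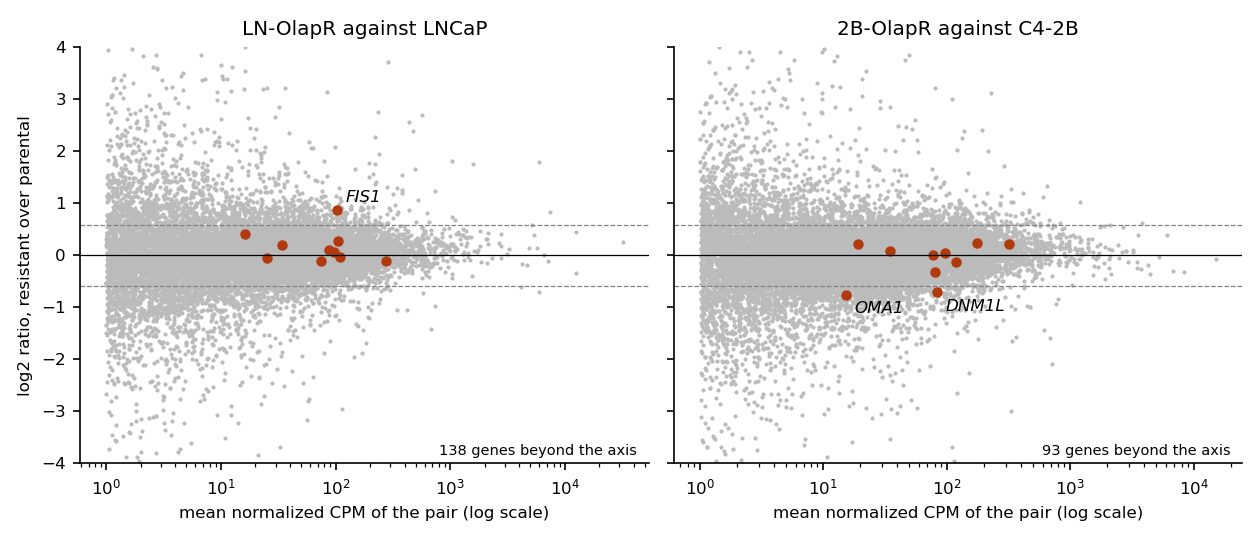
Log2 ratio of resistant over parental cells (vertical axis) against mean normalized CPM of the pair (log axis) for all analyzed genes in grey and the 10 members in red, for the LN pair on the left and the 2B pair on the right. Dashed lines mark 1.5-fold. Most members lie within the grey band around 0, and FIS1 on the left and OMA1 and DNM1L on the right lie outside the dashed lines.

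The castration-resistant line was next compared with its precursor. C4-2B shares its library with the 2B pair and LNCaP with the LN pair, so these values are not independent of those above. In C4-2B against LNCaP, 8 of 10 members had a log2 ratio above 0, against 48.6% of all genes, with a median log2 ratio of 0.17 against -0.02. The intervals of 4 of the 5 fission genes and all 3 fusion genes lay above 0, MFF had 0.08 (-0.07 to 0.22), and both proteases were lower. MIEF1 had the largest ratio, 0.54 (0.47 to 0.61), followed by OPA1 with 0.40 (0.32 to 0.48) and FIS1 with 0.39 (0.30 to 0.48), whose intervals overlap. OMA1 had -0.40 (-0.58 to -0.22). A count of 0 of 10 reached 1.5-fold, against 32.1% of genes, and the intervals of 9 left out 0, against 70.4%.

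Between the resistant lines, 3 of 10 members were at least 1.5-fold apart, against 37.8% of all genes. MIEF1 was higher in 2B-OlapR than in LN-OlapR, with a log2 ratio of 0.79 (0.72 to 0.87), and DNM1L and OMA1 were lower, with -0.62 (-0.72 to -0.52) and -1.11 (-1.33 to -0.89). With total counts or upper quartile factors DNM1L had -0.57 and 2 members passed 1.5-fold. OMA1 was the only member past 2-fold in any of the 4 comparisons. MFN2, MIEF1 and MIEF2 had log2 ratios above 0, 3 of 10 against 49.4% of genes, and this number was 6 with scaling by total counts. Intervals left out 0 for 6 members, against 73.4%.

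Ratios of 2 genes within a library do not depend on the scaling between libraries. The ratio of MFN2 to MFN1 counts was 3.66 for LNCaP and 3.67 for LN-OlapR, and 3.32 for C4-2B and 4.81 for 2B-OlapR. It was the same in the LN lines within counting error, with a log2 difference of 0.00 (-0.10 to 0.11), and in the 2B pair it was higher for the resistant line, by 0.53 (0.42 to 0.64). For OPA1 to DNM1L, the ratios were 1.001, 1.16, 1.19 and 1.77 in LNCaP, LN-OlapR, C4-2B and 2B-OlapR. This ratio of inner membrane fusion to fission mRNA was higher in both resistant lines, with a log2 difference of 0.22 (0.10 to 0.33) in the LN pair and 0.58 (0.45 to 0.70) in the 2B pair. The genes behind it were not the same. The log2 ratio of OPA1 was 0.28 in the LN pair and -0.13 in the 2B pair. For DNM1L these were 0.06 and -0.71. Between the parental lines the ratio of OPA1 to DNM1L was higher in C4-2B by 0.25 (0.13 to 0.36).

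OMA1 to YME1L1, the inducible to the constitutive protease, stood at 0.299 for LNCaP and 0.270 for LN-OlapR, and 0.247 for C4-2B and 0.145 for 2B-OlapR. The log2 difference was -0.15 (-0.33 to 0.03) in the LN pair and -0.77 (-1.02 to -0.51) in the 2B pair. MFF to FIS1 was 0.436 for LNCaP and 0.275 for LN-OlapR, a log2 difference of -0.66 (-0.82 to -0.50), and 0.351 for C4-2B and 0.361 for 2B-OlapR, a difference of 0.04 (-0.13 to 0.22). For the paralogs MIEF2 and MIEF1 the ratio was 0.126 for LNCaP and 0.169 for LN-OlapR, and 0.110 and 0.109 for C4-2B and 2B-OlapR. Its log2 difference was 0.43 (0.21 to 0.64) in the LN pair and -0.01 (-0.22 to 0.21) in the 2B pair. Of these 5 ratios, OPA1 to DNM1L had an interval that left out 0 in both pairs.

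**Figure D4:**
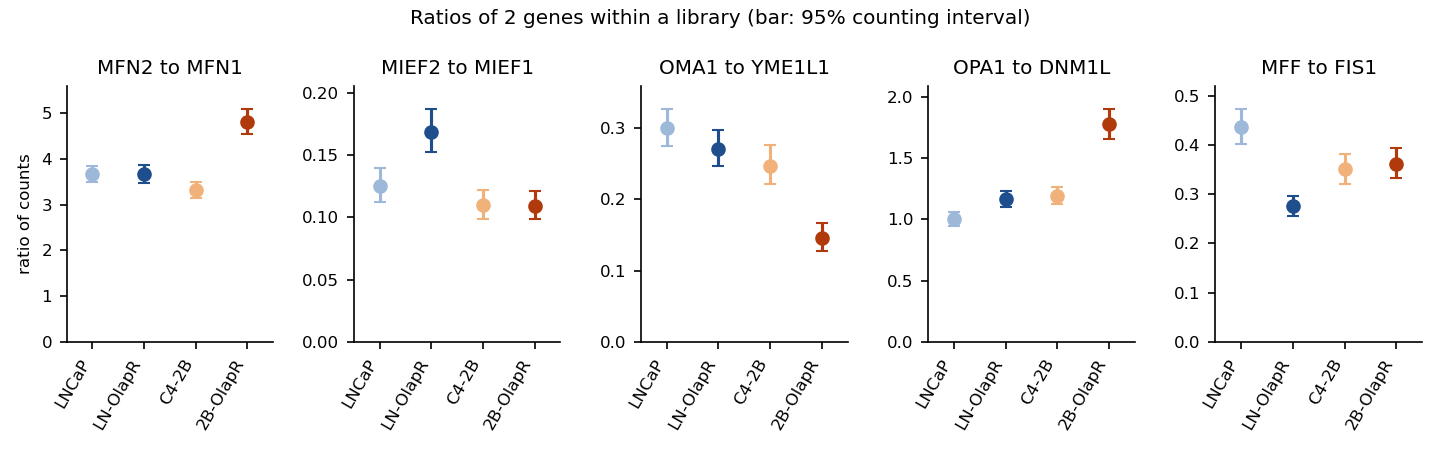
Ratio of the counts of 2 genes within a library (vertical axis, from 0) for 5 gene pairs in the 4 cell lines. Points are single libraries and bars are 95% counting intervals. OPA1 to DNM1L reaches 1.77 in 2B-OlapR, OMA1 to YME1L1 is lowest there at 0.145, and MFF to FIS1 is lowest in LN-OlapR at 0.275.

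Levels of different genes were compared per kilobase of the longest coding transcript in GENCODE. By this length FIS1 was the highest of the 10 in every library, with 80.2 normalized CPM per kb for LNCaP and 145.9 for LN-OlapR, and 105.1 for C4-2B and 107.5 for 2B-OlapR, and MFN2 was the second, with 62.9, 58.5, 65.3 and 75.4. OMA1 and MIEF2 held the last places, with 12.1 and 4.14 normalized CPM per kb in LNCaP and 5.41 and 6.13 in 2B-OlapR. DNM1L had place 3 in both LN lines, 4 in the parental 2B line and 7 in 2B-OlapR, with 21.2, 22.1, 23.5 and 14.4 normalized CPM per kb. The other genes, MIEF1 apart, lay close together, between 13.6 and 22.1 normalized CPM per kb over all libraries. The order depended on the length used. Per total exon length MFN2 was above FIS1 in 3 of 4 libraries. MIEF1 had place 5 in the LN lines and 3 in the 2B lines by the longest transcript, and place 3 in all libraries by coding or total exon length. The transcripts that these lines use were not measured.

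Other genes of mitochondrial dynamics were examined as lists. Of 22 outer membrane regulators 21 were analyzed, of which 1 was at least 1.5-fold higher and 0 lower in the LN pair, against 10.6% and 10.8% of all genes, and 2 were higher and 2 lower in the 2B pair, against 10.7% and 13.5%. The medians were -0.01 and 0.04. INF2, a formin that builds actin at sites of fission, was higher in LN-OlapR with a log2 ratio of 1.44 (1.33 to 1.55) and lower in 2B-OlapR with -1.19 (-1.32 to -1.05). RAB32, a small GTPase that binds protein kinase A at mitochondria, did the reverse, with -0.56 (-0.87 to -0.24) in the LN pair and 1.46 (1.16 to 1.75) in the 2B pair. MUL1, a ubiquitin ligase that acts on mitofusin, had 23.0, 22.8, 24.8 and 56.3 normalized CPM in LNCaP, LN-OlapR, C4-2B and 2B-OlapR, so that 2B-OlapR stood apart, with a log2 ratio of 1.18 (1.03 to 1.33) in the 2B pair. GDAP1, an outer membrane protein linked to fission, was lower there, with -1.10 (-1.44 to -0.76).

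Of 17 genes of inner membrane quality control, 2 were at least 1.5-fold higher in each pair and 0 lower, against 10.6% higher and 10.8% lower among all genes in the LN pair and 10.7% and 13.5% in the 2B pair, with medians of 0.15 in the LN pair and 0.08 in the 2B pair. DELE1, which is cut by OMA1 and carries mitochondrial stress to the kinase EIF2AK1, was higher in both resistant lines. Its level was 44.6 normalized CPM for LNCaP and 73.4 for LN-OlapR, and 60.1 for C4-2B and 98.3 for 2B-OlapR, with log2 ratios of 0.72 (0.61 to 0.83) and 0.71 (0.61 to 0.81). CLPP, a matrix protease, was the other gene past 1.5-fold in the LN pair, with 0.65 (0.56 to 0.74). EIF2AK1 had the lowest ratio of the list in the LN pair, -0.44 (-0.50 to -0.38). In the 2B pair LETM1, an inner membrane protein of ion exchange, was highest with 0.80 (0.73 to 0.87), and ROMO1 lowest with -0.46 (-0.56 to -0.35).

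The MICOS and cristae list, of proteins that shape the inner membrane folds, held 13 genes. The log2 ratio was above 0 for 10 in the LN pair, against 49.6% of all genes, and for 11 in the 2B pair, against 50.0%. The interval lay above 0 for 9 and below 0 for 1 in the LN pair, and for 8 and 0 in the 2B pair. Among all genes, 63.0% and 62.3% had an interval that left out 0 in either direction. A single gene passed 1.5-fold in each pair, against 21.4% of all genes in the LN pair and 24.2% in the 2B pair. These were CHCHD3 with 0.69 (0.59 to 0.78) in the LN pair and ATP5ME with 0.66 (0.59 to 0.73) in the 2B pair. The medians were 0.10 and 0.11. MTX1 was lowest in the LN pair with -0.19 (-0.29 to -0.09), and CHCHD6 in the 2B pair with -0.05 (-0.32 to 0.23). Of 13 genes for transport along the cytoskeleton 11 were analyzed. Of these, 0 passed 1.5-fold in the LN pair, against 21.4% of all genes, and 1 in the 2B pair, against 24.2%. This was SYBU, with 0.75 (0.61 to 0.89). The medians were -0.08 and 0.15. CLUH was highest in the LN pair with 0.24 (0.19 to 0.28) and ARMCX3 lowest with -0.33 (-0.45 to -0.21), whereas the motor KIF5B was lowest in the 2B pair with -0.26 (-0.32 to -0.20).

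Of 17 kinases and phosphatases that act on DNM1L or mitofusins, 15 were analyzed. They held the widest differences of these 5 lists. In all, 4 were at least 1.5-fold higher and 0 lower in the LN pair, against 10.6% and 10.8% of all genes, and 1 was higher and 3 were lower in the 2B pair, against 10.7% and 13.5%. The medians were 0.17 and 0.06. PRKACB, a catalytic subunit of protein kinase A, which is known to phosphorylate and restrain DNM1L, stood at 225.4 normalized CPM for LNCaP and 534.9 for LN-OlapR, and 211.2 for C4-2B and 33.8 for 2B-OlapR. The resistant lines stood on either side of the parental lines. Its log2 ratio was 1.247 (1.203 to 1.291) in the LN pair and -2.64 (-2.76 to -2.53) in the 2B pair. PRKAA2, a catalytic subunit of the AMP-activated kinase that phosphorylates MFF, had 3.24, 14.6, 47.4 and 10.1 normalized CPM, and log2 ratios of 2.17 (1.83 to 2.51) and -2.22 (-2.44 to -2.01). Unlike for PRKACB, both resistant lines lay between the parental lines. PINK1, which marks mitofusins on damaged mitochondria, had log2 ratios of 0.46 (0.27 to 0.65) and 2.47 (2.29 to 2.65). PRKCD was lowest in the LN pair with -0.51 (-0.59 to -0.43). CDK5 and PRKAA1 also passed 1.5-fold in the LN pair, with 0.83 (0.66 to 1.005) and 0.63 (0.56 to 0.70), and MAPK8 in the 2B pair, with -0.60 (-0.76 to -0.44).

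**Figure D5:**
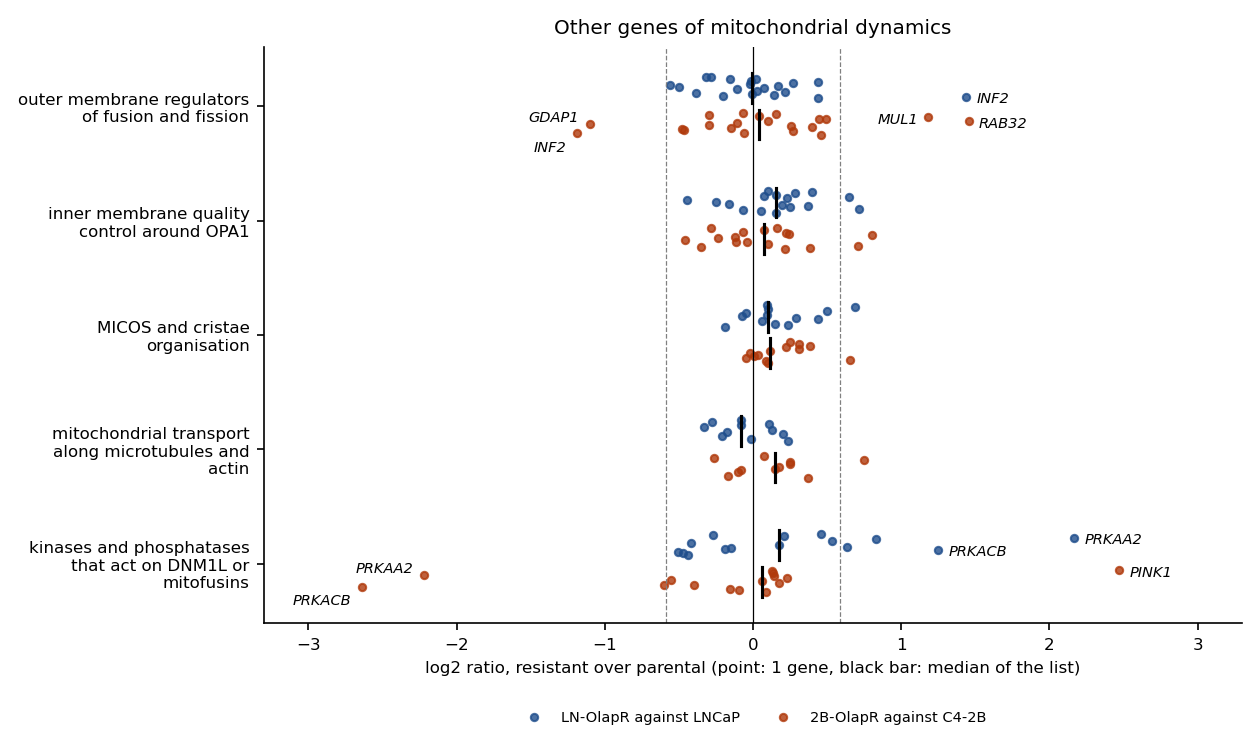
Log2 ratio of resistant over parental cells (horizontal axis) for the genes of 5 lists of mitochondrial dynamics, in the LN pair in blue and the 2B pair in red. Points are genes, black bars are medians, dashed lines mark 1.5-fold and names are given for genes past 2-fold. PRKACB and PRKAA2 lie on the right in the LN pair and on the left in the 2B pair.

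The mRNAs of genes listed as markers of mitochondrial content were set beside the members. Over 24 such genes, the median log2 ratio was 0.06 in the LN pair and -0.17 in the 2B pair, where 8 of 24 had a ratio above 0, against 50.0% of all genes. In the 2B pair the median was -0.24 for the 13 genes encoded in mitochondrial DNA and -0.08 for the 11 nuclear genes. For the latter the interval lay above 0 in 4 and below 0 in 6, where 62.3% of all genes had one that left out 0. The 4 were VDAC1, VDAC2, TOMM40 and TOMM22, of the outer membrane. They had 0.40 (0.35 to 0.45), 0.42 (0.32 to 0.52), 0.40 (0.33 to 0.47) and 0.23 (0.16 to 0.31). TOMM20, also of the outer membrane, was among the 6, with -0.17 (-0.24 to -0.11). All these values are mRNA levels and do not measure mitochondrial content. For the castration-resistant line and its derivative, the study reports more active mitochondrial mass and higher complex I activity in the olaparib-resistant cells. It also reports higher respiration in these cells and, from RNA-seq, enrichment of gene sets for oxidative phosphorylation and electron transport. Those gene sets were not examined here. The median log2 ratio of the 24 listed mRNAs in the 2B pair, -0.17, was below 0. It covers other genes than those sets and another measure than the assays, and the reason for the difference was not tested. The mRNAs encoded in mitochondrial DNA took 6.64% of counts for LNCaP and 6.58% for LN-OlapR, and 4.58% for C4-2B and 3.81% for 2B-OlapR. As for OMA1, this share was lower in C4-2B than in both LN lines and lowest in 2B-OlapR, and its part in the levels of OMA1 and DNM1L was not tested. In bulk RNA, fewer transcripts per cell and fewer expressing cells cannot be told apart.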

How the data were processed

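Total RNA (100 ng) was made into stranded mRNA libraries, 1 per cell line. The authors deposited estimated counts per gene, not scaled between libraries. The submitters' processing notes name STAR, Partek and GRCh38 (hg38), while versions, annotation and use of strand are not given in the sources used here. Of the values, 46.2% are not whole, and genes sum to at least 10 over the 4 libraries. The values were rounded to whole numbers. Effective library sizes were computed with TMM in edgeR 4.0.16 (R 4.3.3). Log2 ratios used a pseudocount of 0.5, for genes whose mean over both libraries of a comparison reached 1 normalized CPM, with numpy, pandas and SciPy in Python. Intervals at 95% are normal for log2 ratios and Wilson for levels, and cover counting error only. As there is 1 library per line, no model was fitted. The call rule was 1.5-fold.

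Members and lists were chosen with earlier results of these data known. Named were all 10 members and, from each list of other genes of mitochondrial dynamics, the highest and lowest ratio in each pair, any gene past 2-fold, and PINK1. CLPP, CDK5, PRKAA1, MAPK8, FOXA1, HOXB13, KLK2, KLK3, VDAC1, VDAC2, TOMM40, TOMM22, TOMM20 and the genes that overlap members are outside this rule and were picked with their values in view. Alternatives were total counts, DESeq2 1.42.0 size factors, upper quartile factors, a pseudocount of 2, other minimum levels, other folds and other gene lengths. Chosen after seeing the data were unrounded counts, TMM within each comparison and the promoter motifs. Scripts were tested on simulated data. Coordinates and lengths are from GENCODE release 29, and promoter windows from RefSeq. Some luminal markers are not reported here.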

Additional observations from a re-analysis of the deposited data

Results flagged for a closer look

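MFN2 and OPA1 had log2 ratios of opposite sign in the LN pair and the 2B pair, each beyond its own counting interval. The difference, 2B pair minus LN pair, was 0.31 (95% counting interval 0.24 to 0.38) for MFN2 and -0.41 (-0.52 to -0.30) for OPA1. For OPA1 the resistant lines were alike, with a log2 ratio of 2B-OlapR over LN-OlapR of -0.01 (-0.09 to 0.07). Its parental lines differed, with 0.40 (0.32 to 0.48) for C4-2B over LNCaP. For MFN2 the same ratios were 0.37 (0.32 to 0.42) between the resistant and 0.05 (0.005 to 0.10) between the parental lines. With total counts in place of TMM, the LN pair had -0.19 for MFN2 and 0.20 for OPA1, in place of -0.10 and 0.28. With 1 library per line, these differences between the pairs were not tested against the spread between cultures. Among 14602 genes analyzed in both pairs, 16.3% showed such opposite ratios, against 2 of 10 members.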

How the results depend on the processing

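Pairing by replicate was not possible, because the labels carry no replicate numbers and each line has 1 library. For the same reason no library could be left out within a comparison. A fit of resistance over both pairs with the parental line as a block, which has 1 residual degree of freedom, was not run. Of the 4 comparisons, the LN pair depended most on scaling. Using total counts instead of TMM moved the median of all genes by -0.08 and put the median of the members at -0.0028. It gave DNM1L -0.02, FIS1 0.78, MFN2 -0.19, OPA1 0.20 and MIEF1 -0.11. Between 2B-OlapR and LN-OlapR, 6 members were higher in 2B-OlapR with total counts and 5 with upper quartile factors, in place of 3. With total counts MFN2 had 0.42 there, in place of 0.37. With a difference of at least 25% (a ratio of 5 to 4) in place of 1.5-fold, 2 members differed in the LN pair, 5 in C4-2B against LNCaP and 5 between the resistant lines, where 42.6%, 55.4% and 61.1% of all genes did. At 2-fold the numbers were 0 in the LN pair, 0 in the 2B pair and 1 between the resistant lines, against 9.46%, 10.1% and 18.4%. In the order of mean levels per length, 6 of 10 genes kept their place with coding length and 4 with total exon length, FIS1 being second in the latter. The other 135 summary values stayed within 1.5 times the count or within counting error, as did 254 of 260 values of single genes and gene pairs, and 0 ratios beyond counting error changed sign. The low counts of OMA1 and MIEF2, 236 to 685, limit the precision of their ratios.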
